A study of Homo sapiens with 12 samples.

Results

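The aryl hydrocarbon receptor (AhR) pathway was followed through 9 genes. They were *AHR*, which encodes the receptor, *ARNT* and *ARNT2*, its dimerization partners, *HSP90AB1* and *PTGES3*, chaperones of the receptor in the cytosol, *AHRR* and *TIPARP*, which feed back on it, and *CYP1A1* and *CYP1B1*, its cytochrome P450 targets. They were taken by symbol from the count table, 9 genes of 56638, and all 9 passed the filter on low counts that left 16080 genes for testing. RNA of 501Mel cells, an established human melanoma cell line with a BRAF-V600E mutation, was sequenced after 48 h with vehicle (DMSO), 1 µM Vemurafenib (Vem), 10 nM TCDD, 5 µM Resveratrol (RSV), 5 µM RSV with 1 µM Vem (RSV+Vem) or 5 µM RSV with TCDD (RSV+TCDD), in 2 libraries per group and 12 in all. For RSV+TCDD, the treatment protocol gives 10 nM TCDD and the sample labels give 1 nM, so each result on that group holds for a dose that the sources do not settle. All groups came from 1 cell line, and nothing in the labels says whether the 2 libraries of a group came from separate cultures, so the p-values measure the spread between these libraries, which may be technical.

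Without a ligand, AhR is held in the cytosol by HSP90 and co-chaperones. A ligand such as TCDD, a dioxin, sends it to the nucleus, where it pairs with ARNT and binds the xenobiotic responsive element (XRE) of its target genes. *CYP1A1* is the standard readout of this route, and the products of *AHRR* and *TIPARP* limit it: AHRR competes for ARNT, and TIPARP is an ADP-ribosyltransferase that acts on AhR. Vem inhibits mutant BRAF, and the study reports that Vem also binds AhR and opposes this route. RSV was used by the study as an AhR antagonist. The comparisons ask how the level of the receptor, its partners and its targets differed between these treatments.

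The libraries held 8378655 to 25076925 counts on genes, with the fewest in RSV+Vem replicate 2. RNA integrity numbers were 9.1 to 9.7, apart from the RSV+Vem libraries at 8.7 and 8.6. Levels are given as CPM (counts of a gene scaled to a common library size), with library sizes adjusted by edgeR's TMM factors. Synthetic ERCC spike-in RNA made up 0.0310% to 0.0936% of the counts and differed within groups, at 0.0389% and 0.0903% in the RSV+Vem libraries and 0.0630% and 0.0936% in the RSV+TCDD libraries. Scaling to the spike-ins moved the median of all genes relative to vehicle by -0.51 (TCDD), -0.68 (Vem), -0.17 (RSV), -1.20 (RSV+TCDD) and -0.70 (RSV+Vem) on the log2 scale, against at most 0.0299 in size under TMM, so the changes below are relative to the bulk of genes. All 7 melanocyte lineage markers were present, with a summed level of 11108 to 51552 CPM, whereas the fibroblast, leukocyte and endothelium lists summed to at most 3.14, 1.31 and 1.92 CPM and the keratinocyte list to 0.112 CPM, with *PECAM1* and *KRT1* at 0 in every library. The 2 vehicle libraries differed more than the libraries of any other group, by a chi-square of their counts over its degrees of freedom (23.6 against 4.81 to 13.4, where 1 is sampling noise). This measure uses raw counts and grows with depth, and the vehicle libraries, at 19841435 and 25076925 counts, were among the deepest. All 10 tested HIF1 target genes, which respond to low oxygen, were 1.48 to 5.34 times higher in vehicle replicate 1 than in replicate 2, whereas 4 of the 9 AhR pathway genes were higher in replicate 1, at ratios of 0.877 to 1.67.

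The XRE is read as TNGCGTG, and its core as GCGTG, which the longer motif contains. Both were searched on both strands (reverse complements CACGCNA and CACGC) in the 1500 bases before the main annotated start of 19812 protein-coding genes on GRCh37. TNGCGTG was present in 26.5% of these windows and GCGTG in 80.3%. The *CYP1A1* window (chromosome 15, minus strand) held 5 matches to TNGCGTG and 10 to GCGTG. Only 0.0202% of genes held as many of the former. *CYP1B1* (chromosome 2, minus strand) held 4 and 7, with 0.0606% of genes at 4 or more. *ARNT* held 2 and 5 and *AHRR* 1 and 4, whereas *TIPARP* held 0 and 6. The other windows held no TNGCGTG, with 4 cores for *ARNT2*, 3 for *HSP90AB1*, 6 for *PTGES3* and none for *AHR*. A match is a string of letters and was not tested for binding.

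**Figure D1:**
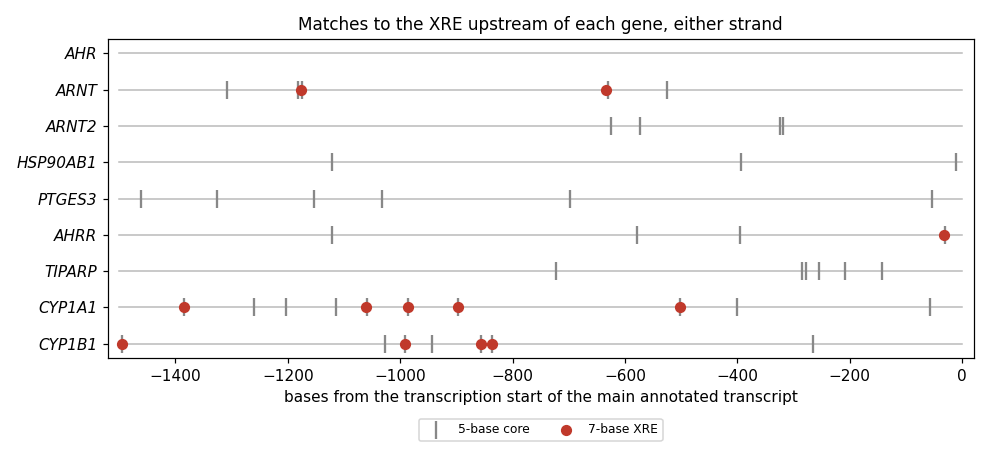
Matches to the XRE in the 1500 bases before the start of the main transcript of each gene, in bases from the start on the x axis. Red points are matches to the 7-base XRE and grey ticks matches to its 5-base core, on either strand. *CYP1A1* holds 5 and *CYP1B1* 4 red points, and *AHR* holds no match of either kind.

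The stretches with the densest matches upstream of the 4 target and feedback genes are printed 5′ to 3′ on the strand of the gene, from GRCh37. Capitals mark matches, of 7 letters for TNGCGTG or CACGCNA and 5 letters for GCGTG or CACGC alone. The *CYP1A1* stretch is chr15:75018685-75018984, minus strand, from -1115 to -816, which is intergenic. The *CYP1B1* stretch is chr2:38304021-38304320, minus strand, from -1027 to -728, in an intron of longer annotated *CYP1B1* transcripts and of the antisense gene *CYP1B1-AS1*. For *AHRR* it is chr5:321529-321828, plus strand, from -300 to -1, in an intron of the read-through gene *PDCD6-AHRR*. For *TIPARP* it is chr3:156392079-156392378, plus strand, from -300 to -1, in an intron of a longer *TIPARP* transcript, and 157 of its bases are exonic in the antisense RNA *TIPARP-AS1*.
CYP1A1: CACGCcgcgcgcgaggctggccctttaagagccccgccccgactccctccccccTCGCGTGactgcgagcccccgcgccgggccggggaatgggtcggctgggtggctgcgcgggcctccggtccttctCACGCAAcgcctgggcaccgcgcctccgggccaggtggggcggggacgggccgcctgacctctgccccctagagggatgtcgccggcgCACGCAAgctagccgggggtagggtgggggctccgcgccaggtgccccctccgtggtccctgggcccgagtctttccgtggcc
CYP1B1: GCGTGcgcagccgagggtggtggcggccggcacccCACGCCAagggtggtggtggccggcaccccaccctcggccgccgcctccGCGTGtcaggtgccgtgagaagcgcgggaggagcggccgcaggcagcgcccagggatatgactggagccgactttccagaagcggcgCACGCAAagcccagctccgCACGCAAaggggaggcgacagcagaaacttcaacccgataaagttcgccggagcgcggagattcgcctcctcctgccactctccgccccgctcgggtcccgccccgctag
AHRR: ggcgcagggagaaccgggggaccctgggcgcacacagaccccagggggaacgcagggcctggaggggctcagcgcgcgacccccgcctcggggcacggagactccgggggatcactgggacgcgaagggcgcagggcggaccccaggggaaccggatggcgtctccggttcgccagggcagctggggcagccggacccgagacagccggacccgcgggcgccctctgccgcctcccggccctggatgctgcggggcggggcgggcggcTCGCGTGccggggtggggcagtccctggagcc
TIPARP: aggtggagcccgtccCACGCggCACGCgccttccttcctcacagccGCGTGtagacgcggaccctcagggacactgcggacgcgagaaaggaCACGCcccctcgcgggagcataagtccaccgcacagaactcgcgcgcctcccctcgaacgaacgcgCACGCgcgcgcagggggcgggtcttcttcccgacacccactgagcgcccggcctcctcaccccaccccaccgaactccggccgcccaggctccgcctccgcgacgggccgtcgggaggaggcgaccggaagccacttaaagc
The *CYP1A1* and *CYP1B1* stretches each hold 3 matches to the longer motif, the *AHRR* stretch holds 1 close to the start, and the *TIPARP* stretch holds 5 matches to the core without the preceding T.

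The genes lay on 8 chromosomes (GRCh37). *AHR* is at chr7:16955983-17385776 on the plus strand in an extended gene model whose main transcript starts at 17338276, *ARNT* at chr1:150782189-150849184 (minus), *ARNT2* at chr15:80696692-80890274 (plus) and *HSP90AB1* at chr6:44213903-44221625 (plus). *PTGES3* is at chr12:57057125-57082192 (minus), *AHRR* at chr5:321829-438406 (plus), *TIPARP* at chr3:156391024-156424559 (plus), *CYP1A1* at chr15:75011883-75017877 (minus) and *CYP1B1* at chr2:38294116-38337044 (minus). Processed copies held few counts: *HSP90AB3P* had at most 0.156% of the counts of *HSP90AB1*, and *PTGES3P1* 0.639% to 1.58% of those of *PTGES3*. *AHRR* shares 5561 exonic bases with *PDCD6-AHRR*, which had no symbol of its own in the table, so reads of the read-through RNA cannot be told apart from those of *AHRR*. Likewise, *AHR* shares 2373 exonic bases with an unnamed protein-coding gene model on the same strand. That model was not in the table either, so its reads cannot be told apart from those of *AHR*.

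Per kilobase of exon, the chaperones were far above the other genes in vehicle cells. *HSP90AB1* stood at 896 and *PTGES3* at 128 CPM per kb. *ARNT*, *TIPARP* and *ARNT2* followed at 11.4, 10.7 and 10.0 CPM per kb, then *AHR* at 7.03 and *CYP1A1* at 6.94. *AHRR* was at 2.41 and *CYP1B1* at 0.0269 CPM per kb. With TCDD, *CYP1A1* reached 42.7 CPM per kb, above *ARNT*, *TIPARP* and *AHR* in the same cells, and with Vem *AHRR* reached 7.16 CPM per kb, above *AHR* at 2.36.

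**Figure D2:**
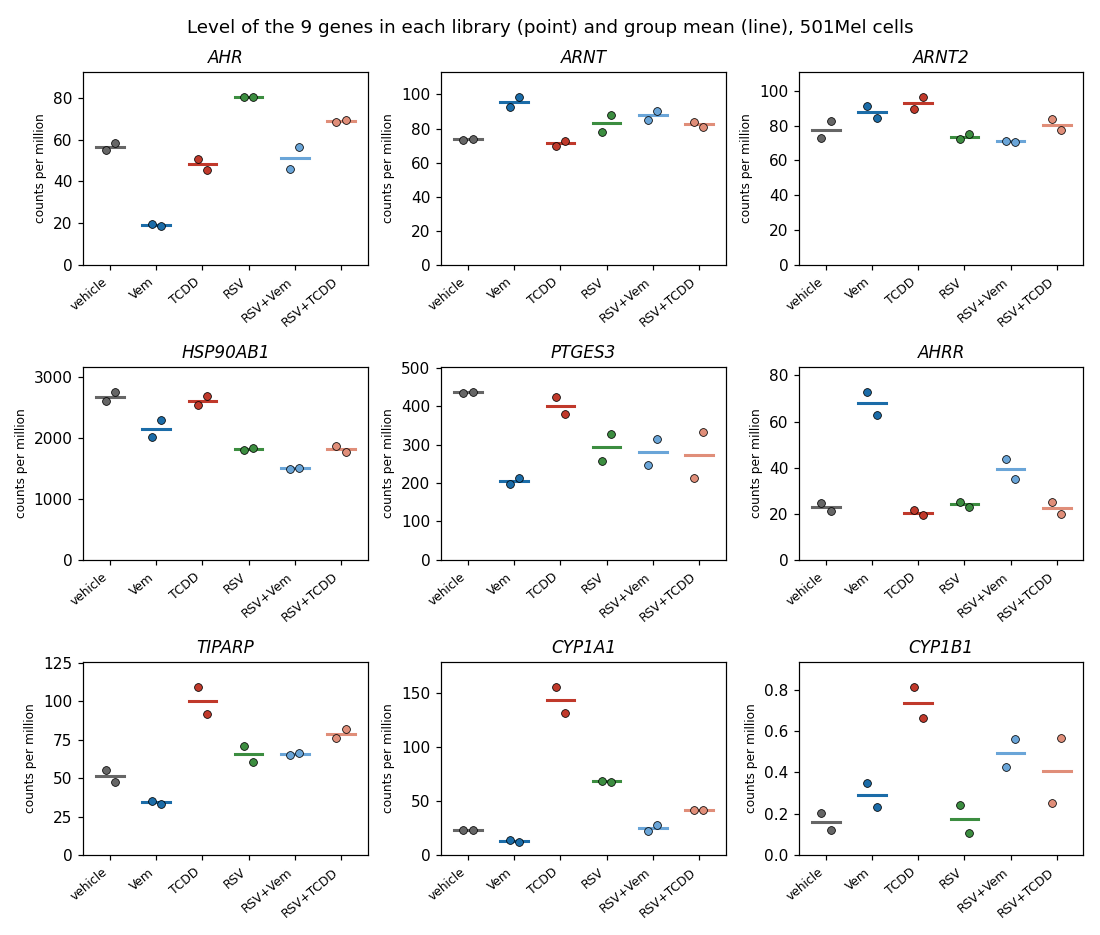
Level of the 9 genes in each of the 12 libraries, in TMM-scaled CPM from 0, with a scale of its own in each panel. Points are libraries and lines group means. *CYP1A1* and *TIPARP* are highest with TCDD, *AHR* is lowest and *AHRR* highest with Vem, and *PTGES3* differs between the 2 libraries of each RSV group.

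TCDD raised the target and feedback genes *CYP1A1*, *TIPARP* and *CYP1B1*, and none of the receptor, partner and chaperone genes passed the test. In these bulk samples, fewer cells of a kind and less RNA per cell cannot be told apart. *CYP1A1*, a cytochrome P450 that oxidizes polycyclic aromatic compounds, was at 23.5 and 23.1 CPM in the vehicle libraries and at 156 and 131 CPM with TCDD. The groups were far apart, and the log2 fold change was 2.62 ± 0.12 (SE, adjusted p = 3.60e-10), the 16th highest of all tested genes. *TIPARP* was at 55.4 and 47.7 CPM without and 109 and 91.5 CPM with TCDD, a log2 fold change of 0.96 ± 0.11 (adjusted p = 5.71e-05). *CYP1B1* held 4 and 3 counts in the vehicle libraries and 18 and 9 with TCDD. Its log2 fold change of 2.20 ± 0.65 (adjusted p = 0.0298) rested on so few counts that the call was lost without any 1 of the 4 libraries: the adjusted p was 0.0680 without vehicle replicate 1, 0.178 without vehicle replicate 2, 0.256 without TCDD replicate 1 and 0.0988 without TCDD replicate 2. DESeq2 gave it no adjusted p here. *RMDN2*, which overlaps *CYP1B1* on the other strand, held 114 to 429 counts, and the antisense *CYP1B1-AS1* 0 to 4.

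The 3 calls, all higher, stood against 4.72% of tested genes called higher, 2.01% called lower and 6.73% in either direction with TCDD. *AHRR*, a textbook AhR target, did not pass the test, with 24.6 and 21.1 CPM in vehicle and 21.5 and 19.3 CPM in TCDD cells (log2 fold change -0.16, adjusted p = 0.574). *AHR* was at 55.0 and 58.3 CPM in vehicle and 50.8 and 45.4 CPM with TCDD. Its groups did not overlap, but the difference of -0.23 ± 0.11 missed the threshold (adjusted p = 0.226). *ARNT* (-0.05), *ARNT2* (0.25), *HSP90AB1* (-0.04) and *PTGES3* (-0.12) had adjusted p-values between 0.135 and 0.846. Under spike-in scaling only *CYP1A1* was called, at 2.12 (adjusted p = 0.0113), and *TIPARP* was at 0.46 (adjusted p = 0.535).

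**Figure D3:**
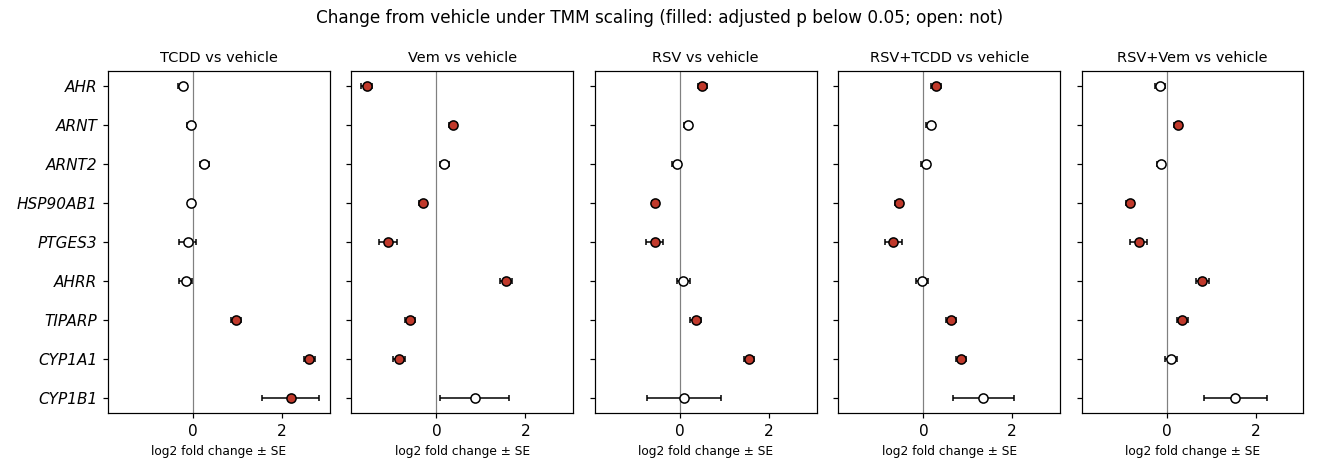
Log2 fold change from vehicle under TMM scaling, with its standard error, for the 9 genes in each treatment. Filled points passed the test at an adjusted p below 0.05. *AHR* and *AHRR* moved most with Vem, in opposite directions, and *CYP1A1* with TCDD and RSV. Under spike-in scaling the sign changed for *ARNT2* with TCDD, *ARNT* and *ARNT2* with Vem, *ARNT*, *AHRR* and *CYP1B1* with RSV, *AHR*, *ARNT*, *ARNT2*, *TIPARP* and *CYP1A1* in RSV+TCDD and *ARNT*, *TIPARP* and *CYP1A1* in RSV+Vem.

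With Vem the receptor gene fell and its repressor rose. *AHR* was at 55.0 and 58.3 CPM in vehicle and 19.5 and 18.6 CPM in Vem cells, a log2 fold change of -1.57 ± 0.12 (adjusted p = 4.06e-09) and the lowest level of the 6 groups. *AHRR* went from 24.6 and 21.1 CPM to 72.7 and 62.9 CPM, a log2 fold change of 1.57 ± 0.14 (adjusted p = 4.57e-08). Under TMM scaling these 2 genes moved by nearly the same amount in opposite directions, and no library of a group overlapped the other group. Under spike-in scaling the directions were kept but the sizes differed, at -2.22 for *AHR* and 0.92 for *AHRR*. The vehicle libraries held 0.448 and 0.363 counts of *AHRR* per count of *AHR*, and the Vem libraries 3.74 and 3.38, a ratio that no scaling of a library can change.

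*CYP1A1* and *TIPARP* were lower with Vem. *CYP1A1* was at 13.6 and 12.4 CPM against 23.5 and 23.1 CPM (log2 fold change -0.84 ± 0.13, adjusted p = 3.37e-05), and *TIPARP* at 35.3 and 33.1 CPM against 55.4 and 47.7 CPM (-0.59 ± 0.12, adjusted p = 4.10e-04). *CYP1B1* held 5 and 3 counts and did not pass the test (adjusted p = 0.354). Among chaperones, *PTGES3*, which encodes the p23 co-chaperone, fell from 435 and 436 to 198 and 213 CPM (-1.09 ± 0.20, adjusted p = 0.00120). *HSP90AB1*, the constitutive cytosolic HSP90, fell less, from 2596 and 2746 to 2017 and 2285 CPM (-0.31 ± 0.08, adjusted p = 0.00377). That call was lost without Vem replicate 1 (-0.23, adjusted p = 0.0663).

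The partner *ARNT* rose from 73.4 and 74.0 to 92.9 and 98.5 CPM under TMM scaling (0.38 ± 0.09, adjusted p = 0.00274), but stood at -0.28 (adjusted p = 0.660) under spike-in scaling. *ARNT2*, its paralog, was at 72.6 and 82.9 CPM in vehicle and 91.2 and 84.4 CPM in Vem cells (0.18, adjusted p = 0.148), and passed the test only without vehicle replicate 2 (0.29, adjusted p = 0.0449). In all, 2 of the 9 rose and 5 fell with Vem, beside 25.5% and 26.9% of all tested genes, or 52.4% together. Their median log2 fold change was -0.31, beside -0.03 for all tested genes. Under spike-in scaling *AHR*, *PTGES3*, *TIPARP* and *CYP1A1* were still called, and *AHRR* kept its direction at 0.92 (adjusted p = 0.111).

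RSV alone raised *CYP1A1*. Its level was 69.0 and 67.5 CPM against 23.5 and 23.1 CPM in vehicle (log2 fold change 1.55 ± 0.12, adjusted p = 4.36e-08), which is below TCDD by 1.07 ± 0.11 on the log2 scale (adjusted p = 9.05e-07). *AHR* was at 80.2 and 80.4 CPM, the highest of the 6 groups (0.50, adjusted p = 0.00121). *TIPARP* was at 70.7 and 60.8 CPM (0.35, adjusted p = 0.0209), a call lost without vehicle replicate 2 (0.25, adjusted p = 0.167) and without RSV replicate 1 (0.23, adjusted p = 0.198). The chaperones fell with RSV. *HSP90AB1* was at 1800 and 1838 CPM (-0.55, adjusted p = 4.80e-05) and *PTGES3* at 258 and 328 CPM (-0.57, adjusted p = 0.0433). The *PTGES3* call was lost without any 1 of the 4 libraries: leaving out vehicle replicate 1 or 2 gave -0.58 or -0.57 (adjusted p = 0.105 and 0.107), and leaving out RSV replicate 1 or 2 gave -0.41 or -0.76 (adjusted p = 0.271 and 0.0525).

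*ARNT* at 78.2 and 88.1 CPM, *ARNT2* at 72.2 and 75.2 CPM and *AHRR* at 25.1 and 23.0 CPM did not pass the test with RSV, nor did *CYP1B1* at 4 and 2 counts. The count was 3 of 9 higher and 2 lower, beside 20.5% and 20.2% of all tested genes, 40.7% together. Under spike-in scaling, no RSV call of the 9 genes was kept, and *CYP1A1* was at 1.38 (adjusted p = 0.0627).

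Together, RSV and TCDD gave less *CYP1A1* than either alone. The RSV+TCDD libraries were at 41.8 and 42.2 CPM, below TCDD (log2 fold change -1.77 ± 0.11, adjusted p = 8.29e-09), below RSV (-0.70 ± 0.12, adjusted p = 0.00185) and, under TMM scaling, above vehicle (0.85 ± 0.12, adjusted p = 2.75e-05), the last turning to -0.35 (adjusted p = 0.467) under spike-in scaling. The interaction, which is the effect of TCDD with RSV minus its effect without, was -3.32 ± 0.16 (adjusted p = 1.50e-09), the 13th lowest of all tested genes. It was called under every alternative, leaving out each library included, and was -3.85 (adjusted p = 1.44e-05) under spike-in scaling. *CYP1A1* was the 1 gene of the 9 with this call, beside 0.149% of all tested genes, 0.0124% above and 0.137% below additivity. By the 1 nM label of RSV+TCDD, each interaction of RSV with TCDD also holds a difference in TCDD dose. The dose and RSV cannot be told apart in it.

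*TIPARP* showed a smaller difference in RSV+TCDD cells, at 76.3 and 81.6 CPM. It was below TCDD (-0.35, adjusted p = 0.0219), a call lost without TCDD replicate 1 (-0.21, adjusted p = 0.303) and without RSV+TCDD replicate 1 (-0.30, adjusted p = 0.133). It was not separated from RSV (0.27, adjusted p = 0.184), and above vehicle under TMM scaling (0.62, adjusted p = 3.34e-04) but at -0.59 (adjusted p = 0.209) under spike-in scaling. Its interaction of -0.70 ± 0.16 missed the threshold (adjusted p = 0.105), although DESeq2 (adjusted p = 0.0247) and the fit without a filter on low counts (adjusted p = 0.0115) called it. Libraries with RSV+TCDD held 0.547 and 0.517 counts of *CYP1A1* per count of *TIPARP*, against 1.43 and 1.44 with TCDD, 0.976 and 1.11 with RSV and 0.425 and 0.484 in vehicle.

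*AHR* in RSV+TCDD cells was at 68.3 and 69.3 CPM, above TCDD under TMM scaling (0.51, adjusted p = 0.00127) but at -0.18 (adjusted p = 0.761) under spike-in scaling, and not separated from RSV (-0.22, adjusted p = 0.244). Against vehicle it was 0.28 higher (adjusted p = 0.0421), a call lost without vehicle replicate 1 (0.24), vehicle replicate 2 (0.33), RSV+TCDD replicate 1 (0.29) or RSV+TCDD replicate 2 (0.27), and turned to -0.91 (adjusted p = 0.0538) under spike-in scaling. *HSP90AB1* at 1869 and 1767 CPM was below vehicle (-0.56, adjusted p = 4.52e-05) and TCDD (-0.52, adjusted p = 1.02e-04) and close to its level with RSV. *PTGES3* was at 212 and 332 CPM, lower than vehicle by TMM (-0.68, adjusted p = 0.0196). Its libraries differed so much that the value was -0.39 without RSV+TCDD replicate 1 (adjusted p = 0.0549) and -1.04 without RSV+TCDD replicate 2, and the call was also lost without vehicle replicate 1 (-0.68, adjusted p = 0.0574) or vehicle replicate 2 (-0.67, adjusted p = 0.0584). Against TCDD it was -0.56 (adjusted p = 0.0494), and -0.48 without TCDD replicate 1, -0.64 without TCDD replicate 2 and -0.27 without RSV+TCDD replicate 1, none of these called.

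*ARNT* (83.9 and 81.0 CPM), *ARNT2* (83.6 and 77.3 CPM), *AHRR* (25.0 and 19.8 CPM) and *CYP1B1* (5 and 12 counts) did not pass the test in RSV+TCDD against vehicle, TCDD or RSV. Against vehicle, 3 of the 9 rose and 2 fell, beside 22.2% and 21.5% of all tested genes (43.7% together). Under spike-in scaling 0 rose and 5 fell (*ARNT*, *ARNT2*, *HSP90AB1*, *PTGES3* and *AHRR*), and over all tested genes 194 rose and 9968 fell, in place of 3571 and 3451. Against TCDD, 1 was higher and 4 lower, beside 18.6% and 19.1% (37.7% together). Against RSV, *CYP1A1* alone was called, beside 3.89% higher and 2.28% lower (6.16% together), while under spike-in scaling, where all genes had a median of -1.02 in that comparison, 6 were.

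**Figure D4:**
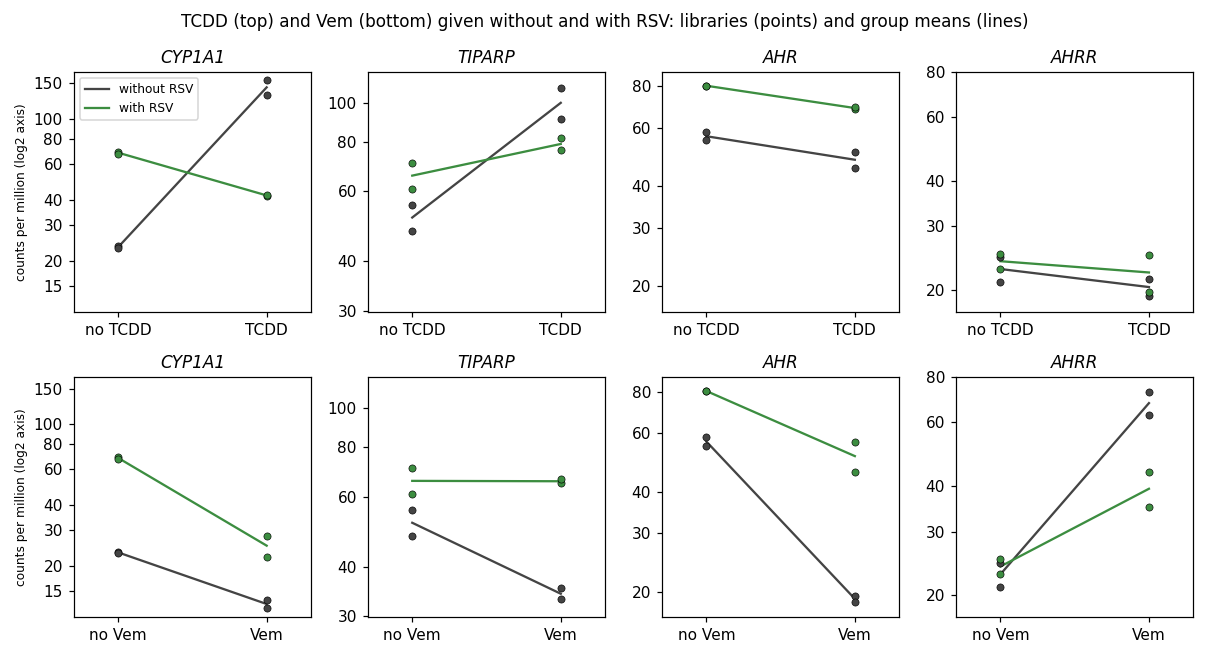
Levels of *CYP1A1*, *TIPARP*, *AHR* and *AHRR* without and with TCDD (top) or Vem (bottom), in cells without RSV (grey) and with RSV (green), in TMM-scaled CPM on a log2 axis. Points are libraries and lines join group means. The lines cross for *CYP1A1* with TCDD, from 23.3 to 144 CPM without RSV and from 68.3 to 42.0 CPM with it, and the fall of *AHR* with Vem is smaller with RSV.

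*AHR* was higher with RSV+Vem than with Vem. It was at 46.0 and 56.3 CPM in RSV+Vem cells against 19.5 and 18.6 CPM with Vem (log2 fold change 1.42 ± 0.12, adjusted p = 8.11e-08), and its difference from vehicle was -0.16 ± 0.11 (adjusted p = 0.257). *AHRR*, at 43.7 and 35.1 CPM, lay between Vem (-0.77 ± 0.14, adjusted p = 2.77e-04) and vehicle (0.80 ± 0.14, adjusted p = 1.83e-04), the latter at 0.15 (adjusted p = 0.808) under spike-in scaling. The libraries held 0.950 and 0.623 counts of *AHRR* per count of *AHR*, between the 2 groups in this ratio as well. The fall of *AHR* with Vem was smaller with RSV by 0.91 ± 0.16 and the rise of *AHRR* dropped by 0.85 ± 0.20 on the log2 scale, and both interactions passed the test (adjusted p = 5.84e-04 and 0.00547). RSV+Vem libraries had the lowest RNA integrity numbers, 8.7 and 8.6, and their part in these results was not tested.

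*CYP1A1* and *TIPARP* were higher with RSV+Vem than with Vem. *CYP1A1* was at 22.2 and 28.1 CPM, above Vem (0.94, adjusted p = 3.29e-05) and below RSV (-1.46, adjusted p = 1.65e-07), and its libraries overlapped those of vehicle. *TIPARP* was at 64.9 and 66.3 CPM, above Vem (0.94, adjusted p = 8.20e-06) and not separated from RSV (adjusted p = 0.989). Against vehicle it was 0.35 higher under TMM (adjusted p = 0.0194) but at -0.35 under spike-in scaling, and the call was lost without vehicle replicate 2 (0.25), RSV+Vem replicate 1 (0.36) or RSV+Vem replicate 2 (0.33). The interactions of RSV with Vem were -0.61 ± 0.18 for *CYP1A1* (adjusted p = 0.0207) and 0.59 ± 0.17 for *TIPARP* (adjusted p = 0.0161), so these 2 genes departed from additivity in opposite directions. The first was lost without Vem replicate 1 (-0.54) or RSV+Vem replicate 1 (-0.44), and the second without vehicle replicate 1 (0.48), Vem replicate 2 (0.55) or RSV replicate 2 (0.48).

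The chaperones stayed low in RSV+Vem cells. *HSP90AB1* at 1484 and 1512 CPM had its lowest level of the 6 groups, below vehicle (-0.83, adjusted p = 3.55e-07), Vem (-0.52, adjusted p = 7.37e-05) and RSV (-0.28, adjusted p = 0.0185), the last a call lost without RSV replicate 2 (-0.27), RSV+Vem replicate 1 (-0.27) or RSV+Vem replicate 2 (-0.29). *PTGES3* at 247 and 315 CPM was below vehicle (-0.64, adjusted p = 0.0239), a call lost without vehicle replicate 1 (-0.64), vehicle replicate 2 (-0.63) or RSV+Vem replicate 1 (-0.47). Against Vem it was 0.45 higher and missed the threshold (adjusted p = 0.108), although DESeq2, the fit without a filter, the fit of the 4 libraries alone and the replicate block (0.44, adjusted p = 0.0371) called it. Its interaction of 1.02 ± 0.28 (adjusted p = 0.0282) was lost without 6 of the 8 libraries, at 1.03 without vehicle replicate 1, 1.01 without vehicle replicate 2, 0.97 without Vem replicate 1, 1.07 without Vem replicate 2, 0.86 without RSV replicate 1 and 0.84 without RSV+Vem replicate 2.

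Among the partners, *ARNT* at 85.1 and 90.3 CPM was 0.25 above vehicle (adjusted p = 0.0384) under TMM and at -0.46 (adjusted p = 0.416) under spike-in scaling, and the call was lost without vehicle replicate 1 (0.24), vehicle replicate 2 (0.26), RSV+Vem replicate 1 (0.29) or RSV+Vem replicate 2 (0.21). *ARNT2* at 71.2 and 70.6 CPM was below Vem (-0.31, adjusted p = 0.0220), lost without Vem replicate 1 (-0.25), RSV+Vem replicate 1 (-0.32) or RSV+Vem replicate 2 (-0.30). *CYP1B1* held 8 and 5 counts. In RSV+Vem, 3 of the 9 were higher and 2 lower than vehicle, beside 24.1% and 24.7% of all tested genes (48.8% together). Against Vem, 3 were higher and 3 lower, beside 19.1% and 18.7% (37.9% together), and against RSV 1 was higher and 3 lower, beside 11.3% and 13.4% (24.7% together). The interaction was called for 3 genes above and 2 below additivity, beside 11.8% and 10.9% (22.7% together). Under spike-in scaling the calls against Vem and those of the interaction were lost, with *AHR* at 1.32 (adjusted p = 0.0814) and 0.99.

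Ordered by level, *CYP1A1* ran from TCDD over RSV, RSV+TCDD, RSV+Vem and vehicle to Vem, and every neighbouring pair differed except RSV+Vem and vehicle (adjusted p = 0.567). *TIPARP* ran from TCDD over RSV+TCDD, RSV, RSV+Vem and vehicle to Vem, where RSV+TCDD did not differ from RSV (adjusted p = 0.184), nor RSV from RSV+Vem. For *AHR* the order was RSV, RSV+TCDD, vehicle, RSV+Vem, TCDD and Vem, with breaks between RSV+TCDD and vehicle and between TCDD and Vem. The step from TCDD to Vem was 1.34 ± 0.12 on the log2 scale (adjusted p = 3.52e-08). *AHRR* ran from Vem over RSV+Vem to RSV, vehicle, RSV+TCDD and TCDD, and these last 4 did not differ between neighbours. *HSP90AB1* fell in steps from vehicle and TCDD to Vem, then RSV and RSV+TCDD, then RSV+Vem. No neighbouring pair passed the test for *ARNT*, *ARNT2*, *PTGES3* or *CYP1B1*. Vem and TCDD, set directly against each other, differed in 7 of the 9 genes, 2 higher and 5 lower with Vem, beside 24.1% and 26.4% of all tested genes (50.6% together), most in *CYP1A1*, which was lower with Vem by a log2 fold change of -3.47 (adjusted p = 8.24e-13). Among these 7, the *HSP90AB1* call (-0.28) was lost without Vem replicate 1 (-0.19) or TCDD replicate 2 (-0.24).

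**Figure D5:**
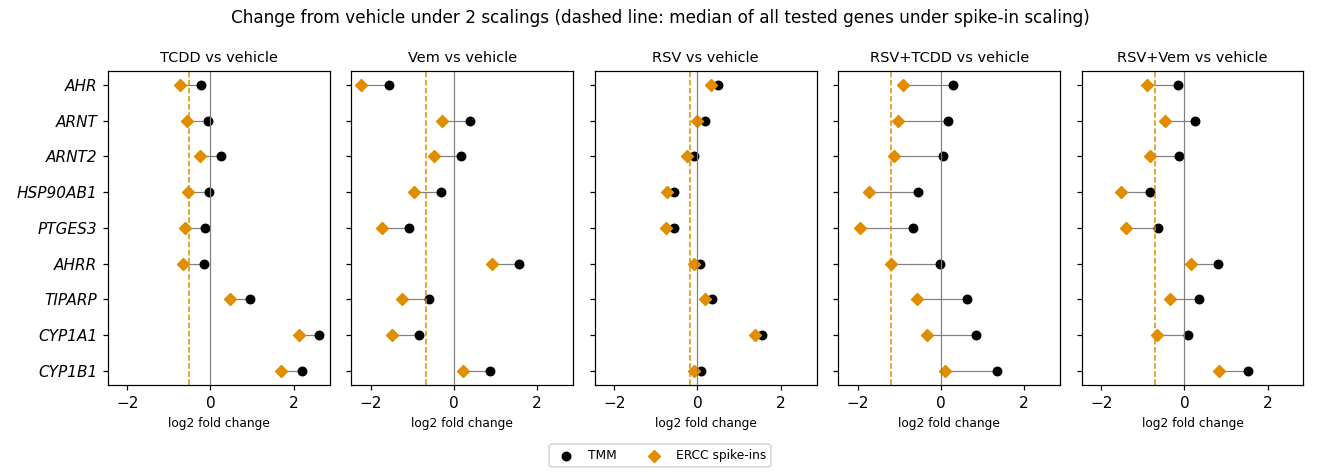
Log2 fold change from vehicle of the 9 genes under TMM scaling (black) and under scaling to the summed ERCC spike-ins (orange), with the median of all tested genes under spike-in scaling as a dashed line. All 9 genes shift with that median, by -0.17 with RSV and by -1.20 with RSV+TCDD, so that *AHR*, *ARNT*, *ARNT2*, *TIPARP* and *CYP1A1* change sign in RSV+TCDD.

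Across the 12 libraries, the log2 levels of *TIPARP* and *CYP1A1* had a Pearson r of 0.87 and those of *AHR* and *AHRR* -0.84. The libraries fall into treatment groups, so these values describe the 6 groups more than 12 independent points. The genes most like *AHR* among the other 16079 were *RBBP8* (r = 0.996), *TMEM194A* (0.993), *FAM107B* (0.992), *TIMELESS* (0.991) and *BRCA1* (0.991). *TIPARP* was most like *PHGDH* (0.952), *CDKN1C* (0.934), *RPL39L* (0.932), *RP11-114G22.1* (0.927) and *LINC00263* (0.926), and *CYP1A1* most like *PSME2* (0.961), *CD96* (0.951), *SLC7A8* (0.939), *ARMC9* (0.939) and *RGPD2* (0.931).

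The lists below are described by their called genes, and the calls stand beside 4.72% of all tested genes higher and 2.01% lower with TCDD, 25.5% and 26.9% with Vem (52.4% together) and 20.5% and 20.2% with RSV (40.7% together). Under spike-in scaling no list gene was called with TCDD, and with RSV 1 α gene rose and 4 HIF1 targets fell. With Vem no list gene was called higher under that scaling, so the Vem rises below lost their calls. Called lower there with Vem were 1 XRE battery gene, 3 bHLH-PAS genes, 1 kynurenine enzyme, 4 α genes and 7 HIF1 targets. Over all 16080 tested genes, spike-in scaling called 195 higher and 3620 lower with Vem, so falls outnumbered rises generally. It called 256 higher and 113 lower with RSV, and 2 and 8 with TCDD. For some lists, the number of genes at an unadjusted p below 0.05 with TCDD is also given. The share of all tested genes below that threshold is not given, so no response is read from these numbers. Of 13 other XRE battery genes, 4 were expressed enough to test. *NQO1*, a quinone reductase, was at 287 and 300.2 CPM in vehicle and 627 and 578 CPM with TCDD (log2 fold change 1.04 ± 0.09, adjusted p = 1.44e-06, and 0.53 with an adjusted p of 0.518 under spike-in scaling). It was at 290 and 288 CPM with RSV and 273 and 308 CPM with RSV+TCDD, so the TCDD libraries stood alone, and its interaction of RSV with TCDD was -1.03 ± 0.13 (adjusted p = 9.18e-04, and -1.56 with an adjusted p of 0.777 under spike-in scaling). *NFE2L2*, the oxidative stress factor NRF2, rose with TCDD (0.46) and fell with Vem (-0.82), and was higher with RSV+Vem than with Vem (0.55). The TCDD call was lost without vehicle replicate 2 (0.37) or TCDD replicate 1 (0.44), and the value was -0.04 under spike-in scaling. *SLC7A5*, an amino acid transporter, rose with Vem (1.33) and fell with RSV (-0.37), the latter lost without vehicle replicate 1 (-0.25). *GSTA1*, a glutathione transferase, was called higher with RSV (2.43) on 5 and 3 counts in vehicle and 14 and 22 with RSV. In the list, 2 genes rose and 0 fell with TCDD (median 0.71 beside 0.00 for all tested genes), and 1 rose and 1 fell with Vem (0.57 beside -0.03) and with RSV (-0.04 beside 0.00).

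In the bHLH-PAS family, the receptor's structural relatives, 8 of 11 genes were tested and none was called with TCDD (edgeR gave 1 of 8 an unadjusted p below 0.05, and DESeq2 called 0). *EPAS1*, which encodes the hypoxia factor HIF-2α and also pairs with ARNT, rose from 99.5 and 103 CPM in vehicle to 280 and 285 CPM with Vem (1.48 ± 0.09) and to 219 and 221 CPM with RSV (1.12 ± 0.09). With both agents *EPAS1* was at 199 and 234 CPM, and the interaction was -1.50 ± 0.13. That call was lost under spike-in scaling, where 8 genes of all tested were above and 0 below additivity. *NPAS1* (-2.11), *ARNTL2* (-2.22), *HIF1A* (-0.61) and *NPAS2* (-0.35) fell with Vem and *ARNTL* rose (0.39). The *NPAS2* call was lost without vehicle replicate 1 (-0.19) or Vem replicate 2 (-0.30), and that of *ARNTL* without Vem replicate 1 (0.31), with -0.26 under spike-in scaling. *ARNTL2*, a clock gene, rose with RSV (1.11). The counts were 2 higher and 4 lower of 8 with Vem, beside 52.4% of all tested genes called (median -0.25), and 2 higher and 2 lower with RSV, beside 40.7% (median -0.15). Of 11 HIF1 target genes, 10 were tested: 2 were higher and 4 lower with Vem (median -1.06), and 1 higher and 5 lower with RSV (median -1.19). These values depended on which vehicle library was used. Without vehicle replicate 1 the medians were -0.18 with Vem and -0.34 with RSV. Without vehicle replicate 2, where 11 genes were tested, they were -1.67 and -1.73. With TCDD the median was -0.50, with 1 gene lower, but 0.43 without vehicle replicate 1 and -1.09 without vehicle replicate 2. *LDHA*, a glycolytic enzyme, was at 1794 and 1210 CPM in vehicle and fell with Vem (-1.45) and RSV (-1.68), both also called without either vehicle library. Its TCDD value of -0.47 (adjusted p = 0.0475) was -0.16 without vehicle replicate 1, and the call was also lost without TCDD replicate 1 (-0.50) or TCDD replicate 2 (-0.44). *NDRG1* rose with Vem (0.86) and RSV (1.14). The former call was lost without vehicle replicate 2 (0.46), Vem replicate 1 (0.84) or Vem replicate 2 (0.87), the latter without RSV replicate 1 (0.89).

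Of 7 other HSP90 complex genes, 6 were tested and none was called with TCDD (unadjusted p below 0.05 in edgeR for 2 of 6, 0 called by DESeq2). *HSP90AA1*, the inducible cytosolic HSP90, fell with Vem (-0.45), a call lost without Vem replicate 1 (-0.28). With RSV the co-chaperones *FKBP4* (-0.50) and *STIP1* (-0.36) fell, the latter lost without vehicle replicate 2 (-0.19). Medians were -0.04 with Vem and -0.06 with RSV. Of 5 genes for AhR degradation, *STUB1*, a ubiquitin ligase that works with chaperones, rose with Vem (0.77) as did *DDB1* (0.33, and -0.32 under spike-in scaling), and *RBX1* fell (-0.39), lost without Vem replicate 1 (-0.30). *TBL3* (-0.41) and *RBX1* (-0.30) fell with RSV. The *TBL3* call was lost without vehicle replicate 2 (-0.20) or RSV replicate 2 (-0.29), and the *RBX1* call without vehicle replicate 1 (-0.30), vehicle replicate 2 (-0.29) or RSV replicate 1 (-0.23) and with DESeq2 (adjusted p = 0.0822). No gene of this list was called with TCDD (unadjusted p below 0.05 in edgeR for 0 of 5, 0 called by DESeq2).

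All 10 coregulator genes were tested. None was called with TCDD (unadjusted p below 0.05 in edgeR for 3 of 10, 0 called by DESeq2), 3 rose and 1 fell with Vem and 4 fell with RSV, with medians of 0.10 and -0.23 and 52.4% and 40.7% of all tested genes called. *NCOA1* (0.69), *CREBBP* (0.54) and *NCOA2* (0.38, lost without Vem replicate 1 at 0.26) were higher with Vem, where spike-in scaling gave 0.04, -0.11 and -0.27, and *NCOA2* fell with RSV (-1.01). Of 8 enzymes that make or use kynurenine-type AhR ligands, 3 were tested. *AFMID*, which makes kynurenine, fell from 21.9 and 23.1 to 11.2 and 13.1 CPM with Vem (-0.89), and *KYNU*, which breaks it down, was higher with RSV (1.68) at 31 and 51 counts against 7 and 25. None of the 3 was called with TCDD (unadjusted p below 0.05 in edgeR for 0 of 3, 0 called by DESeq2).

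The study took the median of 8 AhR target genes as its average α signature, named after the pocket where TCDD binds. It used a longer list of α genes elsewhere. The 8 include *CYP1B1*, and 6 were tested. With TCDD, *CYP1B1* was the only one called, on the few counts given above, and the median of the 6 was -0.22. DESeq2 called 0 of them, as did spike-in scaling. The unadjusted p in edgeR was below 0.05 for 3 of 6, counted in either direction. The log2 fold changes of the 6 with TCDD ran from -1.48 to 2.20, the highest being that of *CYP1B1*. With Vem 4 of the 6 fell, beside 26.9% of all tested genes, among them *RUNX2* (-1.77), a transcription factor, and *PMAIP1* (-1.78), a promoter of apoptosis, for a median of -1.39. With RSV, 3 rose and 1 fell, beside 20.5% and 20.2% (median 0.39): *PMAIP1* rose (1.67), as did *RUNX2* (0.68), and *INHBA*, an activin subunit, held 17 and 17 counts with RSV against 3 and 1 in vehicle and none with Vem.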

How the data were processed

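The authors prepared TruSeq Stranded mRNA libraries, sequenced them on an Illumina NextSeq, aligned the pairs with STAR 2.4.0a to hg19 and counted per gene symbol with featureCounts (Subread 1.5.0-p3) on primary alignments. The authors deposited raw counts that were not normalized. The annotation release is not given in the sources used here, and positions and exon lengths are from GENCODE on GRCh37, in which 33871 of 56734 symbols matched.

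96 control rows, 92 of them ERCC, were removed, genes were kept with filterByExpr by group, and edgeR 4.0.16 in R 4.3.3 (TMM, robust quasi-likelihood fit, 1 term per group, all 12 libraries) tested each comparison. P-values were adjusted after Benjamini-Hochberg over 16080 genes, and a gene was called below 0.05. The common biological coefficient of variation was 0.0915. For a single gene, 2 libraries against 2 allow an exact permutation p no lower than 0.333. The counts include PCR duplicates, so their counting error understates the true error.

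Correlations used log2 CPM with a prior count of 2. The script was tested on simulated data. The 9 genes and the lists (XRE battery, bHLH-PAS, HSP90 complex, degradation, coregulators, kynurenine enzymes, HIF1 targets, α genes, cell type markers) were chosen with earlier results of these data known. Named are the 9 genes, up to 4 called genes per list, direction and comparison by adjusted p (1 result is not reported here), and the 5 genes most like *AHR*, *TIPARP* and *CYP1A1*. Alternatives were DESeq2 1.42.0, RLE factors, spike-in scaling, other filters, a replicate block, only the libraries compared, leaving out each library and, added after seeing the data, a fit without robust estimation. Sequences were cut with samtools 1.23.1, and figures drawn with matplotlib 3.10.9.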

Additional observations from a re-analysis of the deposited data

Results flagged for a closer look

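6 results were singled out because the effect of an agent differed with and without RSV by a test of the difference itself (edgeR's quasi-likelihood test of the interaction, Benjamini-Hochberg adjustment over all tested genes). With TCDD the interaction with RSV was -3.32 on the log2 scale for *CYP1A1* (adjusted p = 1.50e-09): both TCDD libraries were above both vehicle libraries, and both RSV+TCDD libraries were below both RSV libraries. With Vem it was 0.91 for *AHR*, 1.02 for *PTGES3*, 0.59 for *TIPARP*, -0.85 for *AHRR* and -0.61 for *CYP1A1* (adjusted p = 5.84e-04, 0.0282, 0.0161, 0.00547 and 0.0207). Under spike-in scaling these interactions with Vem lost their calls. Those of *PTGES3*, *TIPARP* and *CYP1A1* also depended on single libraries, as given above. The interaction with Vem was called for 22.7% of all tested genes and that with TCDD for 0.149%. By the 1 nM label of RSV+TCDD, the interaction with TCDD also holds a difference in TCDD dose. With 2 libraries per group, no library was tested as standing apart from its group. The vehicle pair differed most by the chi-square of the counts over its degrees of freedom (23.6), a measure that grows with depth. The interactions contain this pair.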

How the results depend on the processing

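Of 730 log2 fold changes of the 9 genes under the alternatives other than spike-in scaling and leaving out libraries, 716 kept their side of the threshold, 6 lost their call and 8 gained one. A value is called reversed here where its sign changed and it was called before or after. This held for 0 of the 730, and 3 uncalled values changed sign. Lost were *TIPARP* with RSV (0.36), *AHR* in RSV+TCDD against vehicle (0.29), *ARNT* in RSV+Vem against vehicle (0.27) and *PTGES3* in RSV+TCDD against TCDD (-0.54) with only the libraries compared, and without a filter *AHR* (0.28) and *ARNT* (0.23) in the same comparisons. Calls of the RSV x TCDD interaction rose from 1 to 2 with DESeq2 and to 2 without a filter. Under spike-in scaling the number of the 9 genes called was 1 (TCDD), 4 (Vem), 0 (RSV), 2 (RSV+Vem) and 5 (RSV+TCDD, 0 higher and 5 lower in place of 3 and 2) against vehicle, 2 for RSV+TCDD against TCDD, 6 against RSV, 0 for RSV+Vem against Vem, 1 against RSV, 4 for Vem against TCDD and 0 for the RSV x Vem interaction. Of 108 values, 25 changed sign under it, of which 9 were reversed: *ARNT* with Vem (-0.28), *AHR* (-0.91), *ARNT* (-1.02), *ARNT2* (-1.13), *TIPARP* (-0.59) and *CYP1A1* (-0.35) in RSV+TCDD and *ARNT* (-0.46) and *TIPARP* (-0.35) in RSV+Vem against vehicle, and *AHR* in RSV+TCDD against TCDD (-0.18). The ERCC shares differed within groups, and the cause of the changes was not tested.

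Leaving out each library, where the lone library of a group is taken to vary like the others, 451 of 504 values kept their side, 52 lost their call, 1 gained one and 0 reversed, while 36 uncalled values changed sign. The number called was 2 to 2 (TCDD), 6 to 8 (Vem), 3 to 4 (RSV), 3 to 4 (RSV+TCDD) and 2 to 3 (RSV+Vem) against vehicle, 3 to 5 for RSV+TCDD against TCDD, 1 to 1 against RSV, 5 to 6 for RSV+Vem against Vem, 3 to 4 against RSV, 6 to 7 for Vem against TCDD, 1 to 1 for RSV x TCDD and 3 to 4 for RSV x Vem. Replicate numbers were not taken to pair the libraries, since the labels give no shared origin: the difference between replicates correlated from -0.121 to 0.155 over 15 group pairs, with 3 over 0.1 and 1 under -0.1. The 3 were those among RSV, RSV+Vem and RSV+TCDD (0.149, 0.155 and 0.117), and *PTGES3* was lower in replicate 1 than in replicate 2 in each of these groups. With the replicate block, *PTGES3* in RSV+Vem against Vem became called (0.44, adjusted p = 0.0371), and the other 107 of 108 values kept their side. *CYP1B1*, at 2 to 18 counts per library, is limited by depth, and DESeq2 gave it no adjusted p in 5 of 12 comparisons, TCDD against vehicle among them.

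Counts over all genes moved by more than 1.5 times as follows. Spike-in scaling gave 10 calls in place of 1082 (TCDD), 3815 for 8422 (Vem), 369 for 6538 (RSV) and 3677 for 7851 (RSV+Vem) against vehicle, 1912 for 6057 (RSV+TCDD against TCDD), 6927 in place of 991 (RSV+TCDD against RSV), 389 for 6088 (RSV+Vem against Vem), 481 for 3972 (RSV+Vem against RSV), 1554 for 8131 (Vem against TCDD), 8 for 3656 (RSV x Vem) and 1 for 24 (RSV x TCDD). That last count was 77 with DESeq2, 170 without a filter, 15 with at least 10 counts in every library, 7 with only the groups compared and 4 to 179 with a library left out, the highest without vehicle replicate 2. Leaving out TCDD replicate 1 or 2 lowered the TCDD count to 293 or 343. RSV+TCDD against TCDD gave 3526 without TCDD replicate 1, RSV+Vem against RSV 2031 without RSV+Vem replicate 1, and RSV+TCDD against RSV 586 with only the groups compared, 383 without RSV replicate 2 and 439 or 330 without RSV+TCDD replicate 1 or 2.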
